A study of Mus musculus with 24 samples.

Results

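Constitutive Cdx2 regions are the stretches of the mouse genome where a Cdx2 peak was called in every one of 12 ChIPmentation libraries of colon organoids. They were chosen by the peak lists themselves: peaks on the autosomes, X and Y that shared any base were joined, which gave 61454 consensus regions, and the 2079 regions (3.38%) that met a peak of all 12 libraries were kept. Presence in the lists, and with it the overall strength, therefore chose the members and is given as a description without a test. Tests were made of differences in strength between groups of libraries, and of the motif and promoter shares. The rule asked for a peak in every library of every group, though the lists differed in length. The study asked how Cdx2 acts in proximal and distal colon, and mapped its binding in organoids of either site grown with or without stem cell niche factors. All organoids came from adult female mice with a heterozygous Cre-inducible BRAF V600E allele and a heterozygous Cre-inducible tdTomato reporter, and both alleles were shared by all groups. Organoids were taken from 3 mice and grown for 4 months in a medium with Wnt3a, EGF, Noggin and R-spondin, called WENR-plus. Each site was profiled in WENR-plus and in WENR-minus medium, which made 4 groups with 3 libraries each. WENR-minus organoids spent 2 days after plating in WENR-plus medium and then 3 days without the factors. Each library came from bulk organoids, so that fewer cells with a bound region and less binding per cell cannot be told apart. The labels number the libraries of each group as biological replicates 1 to 3, without saying that a number marks a mouse. By the paper, the 3 replicates of a group came from different mice. All 12 libraries thus came from 3 mice and are not 12 independent samples. The p-values over libraries measure only the spread between these libraries, part of which may be technical.

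Cdx2 is a caudal-type homeobox factor that sets and maintains the identity of the intestinal epithelium. Its homeodomain reads A/T-rich sequence, and it occupies enhancers and promoters of brush border, transport and cell adhesion genes, often beside Hnf4, Gata and Foxa factors. ChIPmentation inserts sequencing adapters with the Tn5 transposase into chromatin that is still held by the antibody, and fold enrichment is the pileup of immunoprecipitated fragments at a peak summit divided by the local background from the matched input.

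The sequences of the strongest constitutive regions are shown because they hold the pattern on which the results turn. Regions were ordered by the percentile of their fold enrichment within each library's own list, taking the median over the 12 lists, and each is named by the nearest protein-coding start site, which assigns no target. Coordinates are mm10 (GRCm38), the plus strand is printed unless stated, and capitals mark a CDX word or its reverse complement. The CDX words searched were TTTATGG, its variant ending in A (written TTTATGA), the word TTTATTG and its variant TTTATTA. Of the 10 regions of highest percentile, 5 shared a stretch of sequence that is given with the next group, and the other 5, printed here with 50 bases to either side of the median summit, did not.
Rnf139, chr15:58910446-58910546: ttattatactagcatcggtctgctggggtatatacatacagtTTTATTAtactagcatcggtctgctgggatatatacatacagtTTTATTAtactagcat
Edn1, chr13:42276978-42277078: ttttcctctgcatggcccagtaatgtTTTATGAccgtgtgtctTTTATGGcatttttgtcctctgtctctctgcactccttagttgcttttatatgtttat
Prkg2, chr5:99010606-99010706: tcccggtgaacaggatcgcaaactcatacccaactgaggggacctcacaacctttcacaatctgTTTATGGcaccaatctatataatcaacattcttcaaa
Naip6, chr13:100328208-100328308: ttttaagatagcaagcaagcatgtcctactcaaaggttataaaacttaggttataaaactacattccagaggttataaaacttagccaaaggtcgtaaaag
Cck, chr9:121547640-121547740: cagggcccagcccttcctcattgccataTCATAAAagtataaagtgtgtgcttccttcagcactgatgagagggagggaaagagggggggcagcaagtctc

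The Rnf139 region is built of a tandem repeat in which TTTATTA recurs every 43 bp. The Edn1 region carried a TTTATGA and a TTTATGG 17 bp apart. In the Naip6 window none of the 4 CDX words occurred, but part of it resembles the shared stretch given next.

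The other strong regions were copies of 1 interspersed sequence. The stretches below are 65 bases long and are read on the strand that places the CDX word toward the right, so that the copies line up.
Abca12, chr1:71475857-71475921, minus strand: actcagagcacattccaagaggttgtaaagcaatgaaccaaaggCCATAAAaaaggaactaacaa
Abca8b, chr11:109933387-109933451, minus strand: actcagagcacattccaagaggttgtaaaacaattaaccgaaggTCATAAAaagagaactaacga
Ccdc134, chr15:82119257-82119321, minus strand: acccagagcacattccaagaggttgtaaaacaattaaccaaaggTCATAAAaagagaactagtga
Akr1d1, chr6:37573070-37573134, minus strand: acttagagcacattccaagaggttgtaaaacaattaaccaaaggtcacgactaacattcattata
Kdm5b, chr1:134609870-134609934, minus strand: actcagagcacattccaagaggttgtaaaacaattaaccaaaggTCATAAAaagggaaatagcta
Cyp2c29, chr19:39236835-39236899, minus strand: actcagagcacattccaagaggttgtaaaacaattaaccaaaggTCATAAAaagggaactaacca
C2cd3, chr7:100402128-100402192, minus strand: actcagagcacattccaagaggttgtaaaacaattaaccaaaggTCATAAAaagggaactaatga

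In 4 of the 7 printed copies (Ccdc134, Kdm5b, Cyp2c29 and C2cd3) the HNF4 word caaaggTCA runs into the CDX word TCATAAA, with the bases TCA shared by both. Of the other 3, the Abca12 and Abca8b copies hold a CDX word without caaaggTCA, and the Akr1d1 copy holds that word in lower case and breaks off inside the CDX word. The sequence was found after the strongest regions had been read, and everything said of it is a description.

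The lists of the 12 libraries differed in length. They held 5608 to 42192 peaks, and the constitutive regions took 5.13% of the longest and 38.7% of the shortest list. The number of sequenced reads was not used here, and the pileup solved from fold and p stood at a median of 19 to 47 fragments in the members. Among the 1163 regions missing from a single list, that list was distal WENR-plus replicate 3 for 341, distal WENR-plus replicate 1 for 332 and distal WENR-minus replicate 2 for 216. These are the 3 shortest lists. At the threshold of the rule, the lowest −log10 q of a member over its 12 lists had a median of 7.06 and a lowest value of 2.01, and was under 3 in 100 members. In the 1163 regions just outside, the lowest over 11 lists had a median of 4.46 and a lowest value of 2.02, and was under 3 in 159.

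In every list the constitutive regions lay toward the strong end. Their median fold enrichment was 12.2, 13.2 and 11.7 in the proximal WENR-plus libraries, 12.1, 9.91 and 9.997 in proximal WENR-minus, 7.94, 10.3 and 8.54 in distal WENR-plus, and 9.36, 7.89 and 8.74 in distal WENR-minus. Median fold of the other peaks was 4.84 to 6.17. Between 25.7% and 73.3% of the members fell in the top 10% of a list, and their median percentile ran from 75.5 to 95.3. They were wide, with a median of 929 bp against 171 bp for the 25936 regions of 1 library. Merging 12 lists can widen a region, and the part of this in the width was not tested. A base common to all 12 peaks existed in 1927 members (92.7%), over a median of 207 bp. The 12 summits of a member spanned a median of 164 bp, and in 976 members all of them fell within 100 bp of their median.

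At the very top were regions near Casp1, which encodes the inflammasome protease, and near Acnat1, which encodes an acyl-CoA N-acyltransferase. The Casp1 region at chr9:5285591-5287230 had a lowest, median and highest fold of 23.5, 45.8 and 92.5 over the 12 libraries, and that at Acnat1 on chr4:49469242-49470671 had 24.8, 52.5 and 102.2. The region 10.4 kb from the start site of Rnf139, a ubiquitin ligase gene, at chr15:58909268-58911613 had 12.3, 50.4 and 71.7. All 3 were within the top 10% of every list. The region 24.4 kb from Edn1, which encodes the peptide endothelin, had a median fold of 40.0, and that 52 kb from Cck, which encodes the gut hormone cholecystokinin, had 37.6. Abca12 (43.4), Abca8b (40.0), Prkg2 (36.9), Naip6 (35.8) and Ccdc134 (35.0) completed the 10 by median fold, and none of the 10 passed the test for site or medium described further on.

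The CDX motif was common but not universal. A CDX word lay within 50 bp of the median summit in 1531 members (73.6%, Wilson 95% interval 71.7 to 75.5, which covers counting error only). Of 4158 windows of the same length placed 1000 bp to either side of the summits, 479 (11.5%) held one. The share was 71.6% in regions of 11 libraries and 51.7% in regions of 1 library. The summits are unlike, as a region of 1 library has a single summit and not a median of several. At each list's own summits, 59.2% to 66.7% of the member peaks held a CDX word. When the peaks of members were compared with the other peaks of the same list, the share was higher by 8.08 percentage points ± 7.51 (SD, n = 6 lines, a line being a colon site and a replicate number averaged over its media), and higher in 5 of 6 lines. This difference did not pass an exact two-sided sign-flip permutation test (p = 0.0625, where the smallest p that 6 lines allow is 0.03125). In the top 10% of the lists the median share over libraries was 74.6% for members and 72.7% for other peaks, a mean difference of 1.18 points ± 5.84 (SD, n = 12 libraries). From the percentile of 75 to 90 the mean difference was −5.42 points ± 10.03, from 50 to 75 it was −3.76 ± 10.37 and under 50 it was −11.28 ± 14.46, with members higher in 3 or 4 of the 12 libraries in each of these ranges.

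The words sat beside the summits rather than on them. The nearest motif centre was a median of 24 bp from the median summit. Per 100 members, 14.0 motif centres fell from 30 to 21 bp before the summit and 16.3 from 20 to 29 bp after it, against 7.60 and 7.41 in the 10 bp on either side of the summit itself. Strand was even, with 50.2% of 2217 matches on the plus strand. TTTATGG was found 12.6 times and TTTATGA 12.4 times as often per window as in the windows 1000 bp away, TTTATTG 8.79 times and TTTATTA 4.38 times.

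**Figure D1:**
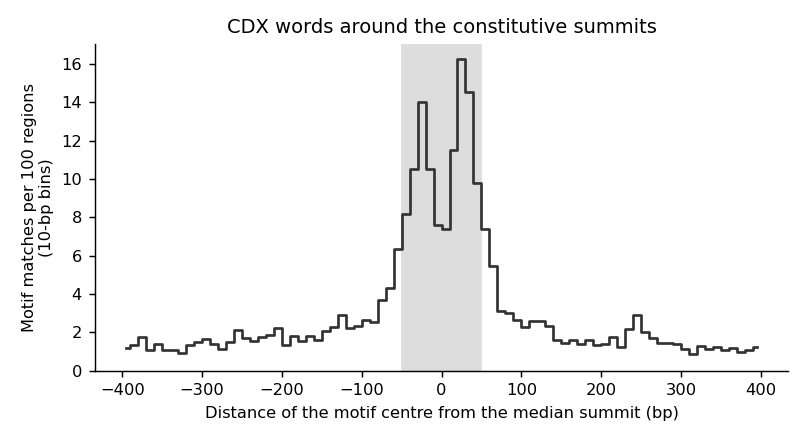
Matches to the 4 CDX words per 100 constitutive regions in bins of 10 bp, against the distance in bp of the motif centre from the median summit of the 12 libraries, with the 50 bp on either side shaded. Matches peak on both sides of the summit, at 14.0 and 16.3 per 100 regions, and dip between.

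Copies were clustered. Within 100 bp of the summit the members held 1.51 CDX words on average against 0.237 in the windows 1000 bp away, and 996 members (47.9%) held at least 2 copies against 2.77% of the windows. The start-to-start distances of neighbouring words were not spread evenly. The commonest was 21 bp, in 97 pairs, and the next was 8 bp, in 93 pairs from 84 members, then 10 bp in 66 pairs. No 8 bp pair came from the interspersed sequence described above. Many copies were counted near Mucl2 (20 copies) and Cartpt (8 copies), which are shown because the motif there is itself the repeated unit.
Mucl2, chr15:103933476-103933576: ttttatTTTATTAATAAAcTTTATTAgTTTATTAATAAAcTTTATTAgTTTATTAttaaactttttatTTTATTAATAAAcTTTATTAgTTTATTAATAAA
Cartpt, chr13:99902311-99902411: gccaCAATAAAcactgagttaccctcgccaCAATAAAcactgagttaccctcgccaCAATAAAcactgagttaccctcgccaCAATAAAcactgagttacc

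The Mucl2 region had a median fold of 11.9 and the Cartpt region, at the promoter of a neuropeptide gene, 8.75.

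Words of other factors were counted within the same 50 bp and on either strand, over all members with or without a CDX word. The HNF4 words CAAAGTCC and CAAAGGTCA were found in 189 members (9.09%), in 0.601% of the distant windows and in 0.952% of regions of 1 library. The AP-1 word TGANTCA, read by Fos and Jun factors, was found in 218 members (10.5%) against 3.92% and 4.84%, and the ETS word AGGAAGT in 112 (5.39%) against 2.501% and 2.37%. The HNF1 word GTTAATNAT gave 1.35% against 0.289% and 0.887%. For the word AGATAA, which is bound by factors of the GATA family, the share was 9.24% against 6.69% and 9.62%, and for FOX (TGTTTAC or its variant TATTTAC) 6.69% against 3.42% and 6.28%, so both were near the level of regions of 1 library. TCF words (CTTTGAT or its variant CTTTGAA) gave 6.25% against 4.21% and 5.19%. The CTCF word AGGGGGC with its variant AGGTGGC (1.058%, 1.73% and 1.08%) and the KLF words CCCCACCC and CCCCGCCC (0.577%, 1.71% and 0.555%) were below the distant windows. AP-1 words were found in 13.9% of the 548 members without a CDX word and in 9.28% of those with one.

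The interspersed sequence was part of 195 constitutive regions (9.38%). A region was counted as holding it if at least 15 of the 113 distinct 8-base words of a 120-base consensus of the members lay within 150 bp of the summit. Of the 4158 windows 2000 bp away, 1 (0.0241%) did. It was in 20 of the 50, 38 of the 100 and 65 of the 200 regions of highest percentile. Its share rose step by step with the number of libraries that called a region, from 0.282% in 1 library through 2.28% in 6 to 9.38% in 12, and of all 922 consensus regions that held it 195 (21.2%) were constitutive. An exact match to the core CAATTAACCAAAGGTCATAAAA occurs 121 times in the genome, and all 121 copies lay in a Cdx2 consensus region: 60 in constitutive regions, 47 in regions of 6 to 11 libraries and 14 in regions of 1 to 5. The core was read from the members, so this count describes the copies and does not test them.

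**Figure D2:**
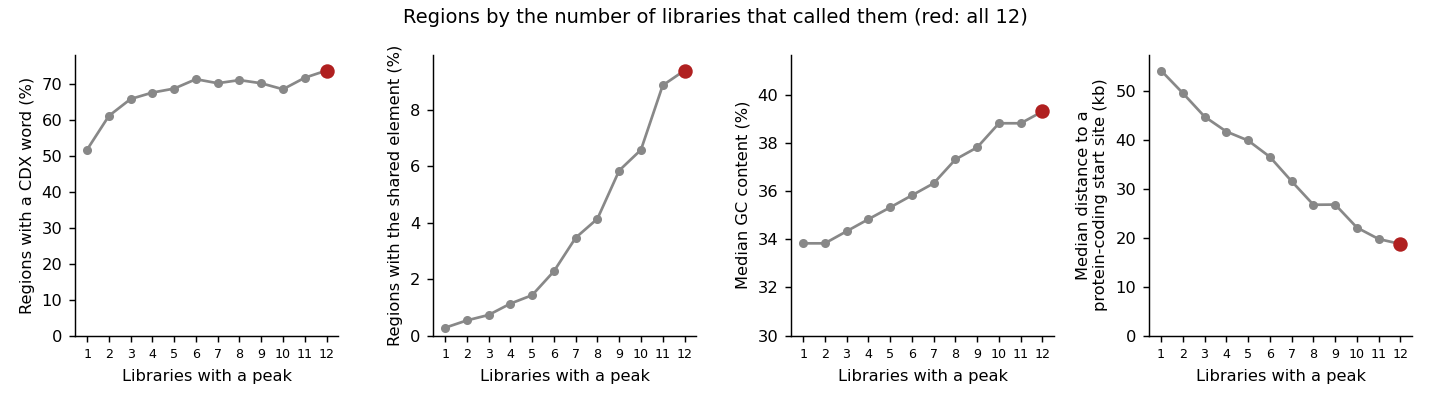
The panels plot, for regions called in 1 to 12 libraries, the share with a CDX word within 50 bp of the summit (%), the share with the interspersed element (%), the median GC content (%, axis from 30) and the median distance to a protein-coding start site (kb), with the constitutive regions in red. The motif share levels off between 68.4% and 73.6% from 5 libraries on, while the element share climbs from 0.282% to 9.38%.

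Members with the element differed from the other 1884 in strength and in neighbouring words. Their median fold was 14.4 against 9.61 and their median percentile 96.1 against 87.3. A CDX word was found in 175 of them (89.7%) against 72.0%, an HNF4 word in 124 (63.6%) against 3.45%, and an AP-1 word in 1 (0.513%) against 11.5%. At least 50% of the bases around the summit were marked as repeat of any kind in 158 (81.0%) against 9.02%. Spacing set them apart as well, since 79 of the 97 pairs 21 bp apart came from them. How reads that map to several copies were handled is not given in the sources used here, and its part in these values was not tested.

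The excess in fold was not the same in every library. The median fold of members with and without the element was 21.2 and 11.7 in proximal WENR-plus replicate 1, 27.3 and 12.5 in replicate 2, and 14.6 and 11.7 in replicate 3. In proximal WENR-minus the values were 23.9 and 11.7, 21.2 and 9.20, and 14.8 and 9.85. In distal WENR-plus they were 11.5 and 7.94, 12.0 and 10.2, and 8.11 and 8.54, and in distal WENR-minus 15.8 and 9.04, 11.04 and 7.89, and 8.74 and 8.74. The ratio of the medians ran from 0.95 to 2.31 and was lowest in replicate 3 of each group, with no excess in either distal replicate 3.

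**Figure D3:**
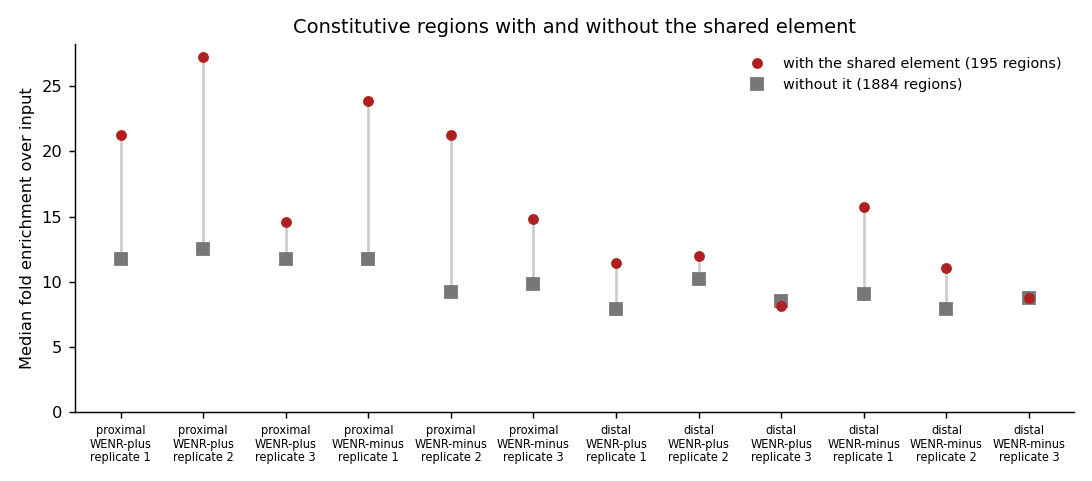
Median fold enrichment over input in each of the 12 libraries for the 195 constitutive regions with the interspersed element (red circles) and the 1884 without it (grey squares). The circles lie above the squares in 10 libraries, are level in distal WENR-minus replicate 3 and lie below in distal WENR-plus replicate 3.

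A smaller set of members held the motif within a repeated unit of the kind found in zinc-finger genes. Whether these stretches are coding was not examined. The word GGAGAGAAACC, which belongs to the linker between fingers of C2H2 zinc-finger genes, lay within 100 bp of the summit in 20 members (0.962%), in 12 of the 25936 regions of 1 library and in none of 4158 windows 2000 bp away. Of the 20, 14 lay on chr12:18150784-24216143 and 6 on chr13:65397367-66852805. All 20 had a CDX word within 100 bp and 17 had at least 2, and their median fold was 7.60 with a range of 5.20 to 10.9. The strongest is shown for the word TCATAAA that recurs with the finger unit of 84 bp.
Gm21863, chr12:20322387-20322518, plus strand: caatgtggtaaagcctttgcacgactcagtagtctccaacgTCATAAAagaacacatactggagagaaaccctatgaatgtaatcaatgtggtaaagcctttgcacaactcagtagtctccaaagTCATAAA

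Most members were away from start sites. A start site of any annotated gene lay within 3 kb of 449 members (21.6%, Wilson 95% interval 19.9 to 23.4), while 772 (37.1%) were intronic, 823 (39.6%) intergenic and 35 exonic. The distance to the nearest protein-coding start site had a median of 18.7 kb, against 54.2 kb for regions of 1 library. The promoter share of member peaks was higher than that of other peaks of the same list by 3.38 points ± 2.68 (SD, n = 6 lines), in 5 of 6 lines (exact two-sided sign-flip permutation test, p = 0.0625). Median GC content was 39.3% against 33.8%. Within 10 kb of another member stood 256 (12.3%), so that the 2079 regions made 1938 separate loci. On the X chromosome were 49 members (2.36%) and 7.51% of the regions of 1 library. Of the consensus regions on X 1.19% were members, against 2.82% to 4.26% on the autosomes.

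A minority of members stood on high background. In 36 members the solved background was at least 5 times its list's median over members, with a median fold of 2.38 at a percentile of 0.47. CDX words lay within 50 bp of 6 of them, and at least 50% of the bases around the summit were repeat in 23. They include all 25 members with a median fold under 3 and both members on the Y chromosome, which these female mice do not carry. The largest group of neighbours was of this kind, 11 members between 3000250 and 3038250 on chromosome 9 beside Gm10722, Gm11168 and other predicted genes, with a CDX word in none. The next group was 4 members at chr10:98678097-98695617, nearest Atp2b1, at a median percentile of 85.7. Groups of 3 lay at Tmem236 (chr2:14174056-14178942), Baz2b (chr2:60194017-60211710) and Dstn (chr2:143904126-143918262), the last a gene of an actin-severing protein.

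Among genes, those that build the epithelial cell surface were often next to a constitutive region. Over all 21938 protein-coding genes, 280 (1.28%) had a member within 3 kb of a start site and 2492 (11.4%) within 50 kb. Of 30 genes of epithelial structure 8 had one within 3 kb and 15 within 50 kb. The 8 were Cdh17, Cdhr5, Krt19, Krt20, Pls1, Tmprss2, Ush1c and Vil1, which encode intestinal cadherins, keratins of the luminal epithelium, the actin bundlers plastin and villin, a membrane serine protease and the microvillar scaffold harmonin. The strongest by percentile was Krt20 at a median fold of 20.97, followed by Tmprss2 at 19, Pls1 at 15.8 and Cdh17 at 10.9. Fold at Tmprss2 ran from 11.5 to 28.2 over the libraries and at Cdh17 from 7.41 to 15.99.

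Of 36 genes of colonocyte function 4 had a member within 3 kb and 16 within 50 kb. These were Gucy2c, the guanylin receptor (median fold 12.4), Cyp2c55, a cytochrome P450 (11.1), Car1, a carbonic anhydrase (8.51), and Slc26a3, the chloride and bicarbonate exchanger (6.81). Of 32 intestinal transcription factors 3 had one within 3 kb and 11 within 50 kb, the 3 being Hnf4g (15.7), Gata6 (8.94) and Hnf4a (6.11). Homeobox cluster genes counted 4 of 39 within 3 kb, Hoxa3 (12.4), Hoxa4 (11.3), Hoxa7 (11.9) and Hoxc6 (12.0), and 24 within 50 kb, but neighbours in a cluster share the same regions. The strongest region of the Hoxa cluster, at chr6:52199573-52201787, had a median fold of 29.6.

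Other lists were nearer the background within 3 kb. Goblet and secretory genes gave 1 of 25 within 3 kb, Sct, the secretin gene, whose region (median fold 6.78) it shares with Cdhr5. Stem cell and Wnt target genes gave 1 of 25, Rnf43, the ubiquitin ligase that removes Wnt receptors (8.98). Colon cancer genes gave 0 of 26. Immune (0 of 8), stromal and muscle (0 of 8), neural (0 of 5) and endothelial (0 of 3) marker genes had none within 3 kb. Within 50 kb, where the share of all protein-coding genes was 11.4%, goblet and secretory genes gave 5 of 25 (20%). Stem cell and Wnt target genes gave 3 of 25 there and colon cancer genes 3 of 26. Immune, stromal and muscle, and neural markers gave 1 each, and endothelial markers 0. The lists measure where binding was called and not the expression of any gene.

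Strength of binding at the members differed between colon sites at some regions. Folds were set on 1 scale by quantile normalization over the 2079 members, and limma tested proximal against distal over both media with 6 libraries each. Each library counted as a separate sample, although the 2 media of a line may be related (consensus correlation 0.259). Of the 2079, 124 (5.96%) were higher in proximal and 99 (4.76%) higher in distal organoids at a Benjamini-Hochberg adjusted p under 0.05. Without normalization between libraries 691 were higher in proximal and 18 in distal. All 6 proximal libraries lay above all 6 distal ones in 54 members (2.6%), and the reverse held in 48 (2.31%). A region lost from any list is no member, so differences by absence are not among these. Regions missing from a single list most often lacked a distal one, and the part of this in the calls was not tested. A log2 difference of at least 1 in size was found in 24 members, and the median standard error was 0.18. The proximal lists were the stronger ones, with median member folds of 9.91 to 13.2 against 7.89 to 10.3 and median pileups of 28 to 47 against 19 to 30, and the part of this in the calls was not tested. The count was 77 on the means of 6 lines. It was 51 without replicate 1, 11 without replicate 2 and 183 without replicate 3. These fits also hold fewer samples, and the part of that in the lower counts was not tested.

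Hnf4g, which encodes a nuclear receptor of the intestinal epithelium, was among the regions higher in proximal organoids. At its start site (chr3:3633344-3634625) the normalized fold was 19.9, 19.97 and 19.2 in proximal WENR-plus, 16.2, 20.96 and 22.1 in proximal WENR-minus, 6.97, 7.79 and 12.1 in distal WENR-plus and 10.5, 9.73 and 12.7 in distal WENR-minus. Every proximal library was above every distal library, with a log2 difference of 1.01 ± 0.17 (SE, limma adjusted p = 0.00258). The region 143 kb from Iqub (chr6:24371213-24372573) gave 18.4, 15.6 and 22.4, then 22.2, 22.1 and 26.0 in proximal WENR-plus and WENR-minus, and 5.76, 7.79 and 7.89, then 10.4, 9.40 and 11.2 in distal. Here too the sites did not overlap (1.29 ± 0.15, limma adjusted p = 0.000565). With limma on the means of 6 lines the adjusted p was 0.0299 at Hnf4g, at Iqub and at the Pappa and Boc regions given below.

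Other named regions of this direction included that 245 kb from Pappa, which had the largest difference in this direction, 1.42 ± 0.21 (SE, limma adjusted p = 0.00138), with 8.60, 12.5 and 19.4 in proximal WENR-plus, 18.2, 17.2 and 26.5 in proximal WENR-minus and no distal value above 6.80. The region 181 kb from Lrig1, which encodes a restrainer of growth factor receptors in stem cells, ran from 15.1 to 28.2 in proximal and from 5.57 to 10.8 in distal libraries. The region 54.0 kb from the start site of Nr3c2, the mineralocorticoid receptor gene, ran from 12.0 to 18.9 and from 5.63 to 9.38. The Mmp20 region, intergenic and 3.94 kb from the gene's start site, holds the interspersed element and ran from 10.7 to 20.2 and from 4.55 to 9.99. Pappa and Iqub are shown for their difference.
Pappa, chr4:64879044-64879144: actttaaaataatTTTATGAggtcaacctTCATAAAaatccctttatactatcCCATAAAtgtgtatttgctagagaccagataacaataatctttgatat
Iqub, chr6:24371879-24371979: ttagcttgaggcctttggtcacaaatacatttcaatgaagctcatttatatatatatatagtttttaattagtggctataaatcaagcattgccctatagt

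Higher in distal organoids were regions near Boc, Tigd4, Nol10, Ttpal and Tgm3. At Boc, which encodes a co-receptor of Hedgehog ligands, the region at chr16:44630591-44631317 gave 4.42, 8.47 and 9.04 in proximal WENR-plus, 3.85, 5.07 and 8.09 in proximal WENR-minus, 16.8, 20.1 and 24.2 in distal WENR-plus and 17.2, 18.1 and 18.6 in distal WENR-minus. The sites did not overlap and the log2 difference was −1.63 ± 0.21 (SE, limma adjusted p = 0.00104), the largest in size of all members. The Tgm3 region, 93.1 kb from a transglutaminase gene, ran from 6.98 to 9.84 in proximal and from 10.8 to 22.3 in distal libraries. Ranges at Tigd4 were 3.35 to 9.55 and 10.8 to 18.1, at Nol10 5.00 to 10.2 and 11.2 to 21.8, and at Ttpal, named for a tocopherol transfer protein, 4.21 to 6.65 and 8.90 to 17.2. The Boc and Tgm3 windows contrast, as only the second holds CDX words.
Boc, chr16:44630932-44631032: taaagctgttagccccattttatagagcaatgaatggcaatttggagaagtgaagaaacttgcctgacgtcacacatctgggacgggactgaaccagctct
Tgm3, chr2:129919215-129919315: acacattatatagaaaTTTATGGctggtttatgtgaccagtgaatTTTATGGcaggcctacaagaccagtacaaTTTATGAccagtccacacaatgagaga

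**Figure D4:**
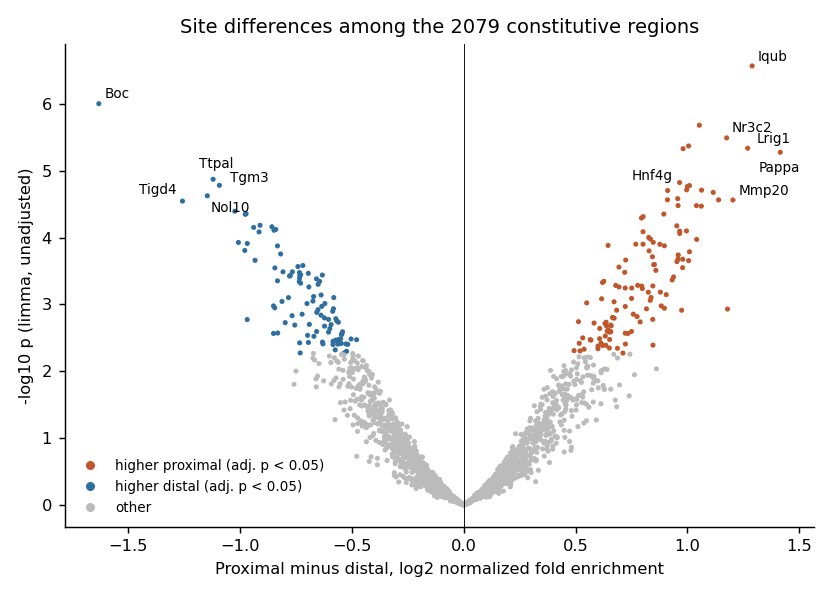
Difference of proximal minus distal in log2 normalized fold enrichment on the x axis against the unadjusted −log10 p of limma on the y axis for the 2079 constitutive regions, with those past an adjusted p of 0.05 in orange (124 higher in proximal) and blue (99 higher in distal). Few regions pass 1 in size, among them those near Pappa (1.42) and Boc (−1.63).

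The called regions differed in the words they held. GATA words were found in 23 (18.5%) of the regions higher in proximal and in 10.1% of those higher in distal, against 9.24% of all members. AP-1 words were found in 2 (1.61%) of the regions higher in proximal and in 18 (18.2%) of those higher in distal, against 10.5% of all. CDX words were found in 79.8% and 60.6%. The interspersed element was in 32 of the 124 and in 1 of the 99, and among all 195 members that held it 153 had a higher mean in proximal, at a median log2 difference of 0.24 against −0.05 in the rest. These shares describe the called regions and no test was made of them.

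The test of medium called fewer members. Of the 2079, 5 (0.241%) were higher and 2 (0.0962%) lower in WENR-minus than in WENR-plus organoids at an adjusted p under 0.05 (limma, 6 libraries each). All 6 WENR-minus libraries lay above all 6 WENR-plus ones in 16 members (0.77%), and below them in 6 (0.289%). With the replicate number as a block 77 members were called (48 higher and 29 lower), and 68 with the line as a block, although the labels do not say that a number or line pairs the libraries. No member was called without replicate 1 or without replicate 2. None passed for the interaction of site and medium (0%, limma adjusted p, 89 at an unadjusted p under 0.05).

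Krt20, the keratin of differentiated colonocytes, was 1 of the 5. At its promoter (chr11:99436310-99437431, 1.25 kb from the start site) the normalized fold was 19.3, 15.1 and 15.8 in proximal WENR-plus, 20.8, 21.9 and 22.5 in proximal WENR-minus, 9.10, 8.54 and 16.6 in distal WENR-plus and 28.8, 28.1 and 26.0 in distal WENR-minus. All WENR-minus libraries lay above all WENR-plus ones, and the log2 difference was 0.86 ± 0.17 (SE, limma adjusted p = 0.0414). It passed in 2 of 15 fits that left out a library or a replicate number. The Hsfy2 region, 236 kb from the gene, gave 6.47, 4.86 and 7.07 against 10.6, 9.48 and 10.7 in proximal, and 7.38, 6.52 and 8.91 against 18.5, 19.3 and 16.2 in distal WENR-minus (1.01 ± 0.15, limma adjusted p = 0.0113).

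The Gm10198 region at chr13:111618578-111620149, 26.7 kb from that gene's start site and 2.98 kb from that of Gm15286, gave 8.24, 8.79 and 8.84 in proximal WENR-plus against 15.8, 13.2 and 21.6 in proximal WENR-minus, and 6.64, 6.15 and 5.50 against 11.3, 11.6 and 18.3 in distal (1.04 ± 0.17, limma adjusted p = 0.0155). The next region lay 44.5 kb from the start site of Fam129a. There the values were 6.14 to 10.3 in WENR-plus and 12.4 to 19.3 in WENR-minus, with no overlap. Near Prdx6, a peroxiredoxin gene, they were 3.697 to 9.04 and 8.23 to 18.3 and did overlap.

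The 2 regions that were lower without the factors lay 167 kb from Lef1 and 286 kb from Klf12. Lef1 encodes the DNA-binding partner of β-catenin, the effector of Wnt signals, and its region at chr3:130943051-130943812 gave 13.9, 14.0 and 24.8 in proximal WENR-plus, 8.89, 10.4 and 9.28 in proximal WENR-minus, 15.1, 15.3 and 16.6 in distal WENR-plus and 8.90, 7.17 and 9.996 in distal WENR-minus. All WENR-minus libraries lay below all WENR-plus ones (−0.85 ± 0.17 SE, limma adjusted p = 0.0414). At Klf12, a gene of a zinc-finger repressor, values were 8.24 to 20.3 in WENR-plus and 5.25 to 8.64 in WENR-minus and overlapped. In the 15 fits that left out a library or a replicate number, Hsfy2 passed in 11, Gm10198 and Fam129a in 9, Prdx6 and Klf12 in 5 and Lef1 in 3. Gm10198 and Lef1 are shown as the first in either direction.
Gm10198, chr13:111619475-111619575: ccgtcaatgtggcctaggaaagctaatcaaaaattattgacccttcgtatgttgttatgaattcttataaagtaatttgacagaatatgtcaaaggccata
Lef1, chr3:130943418-130943518: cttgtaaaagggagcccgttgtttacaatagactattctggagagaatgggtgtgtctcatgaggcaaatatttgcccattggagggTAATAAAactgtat

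**Figure D5:**
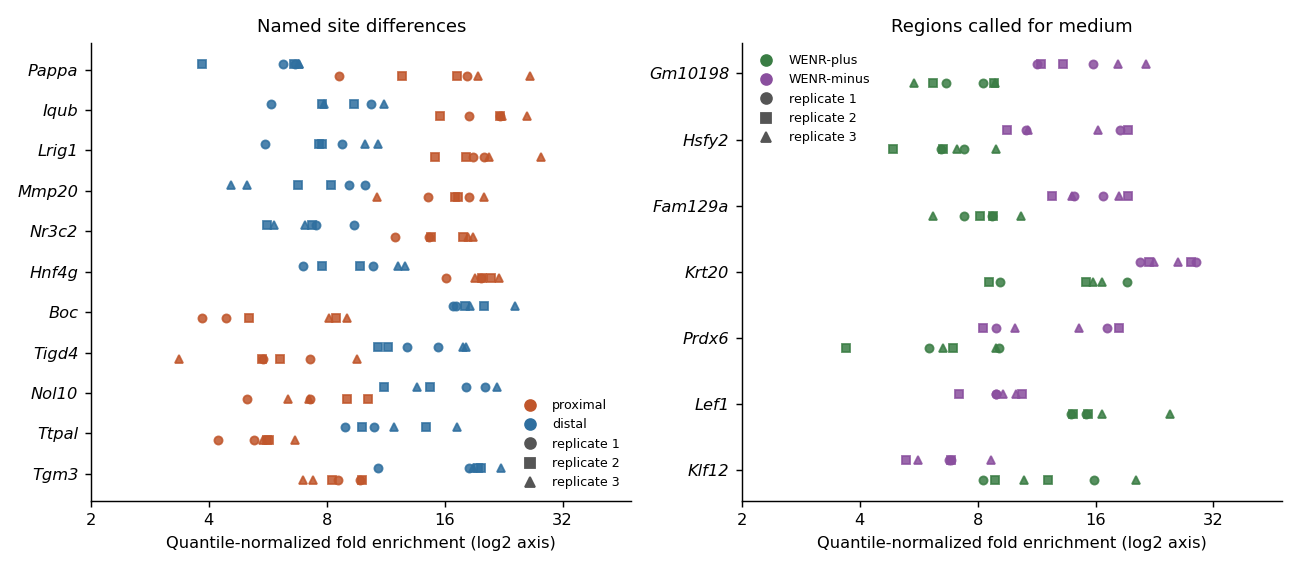
Quantile-normalized fold enrichment (log2 axis) of each of the 12 libraries at the regions named for site (left, orange proximal and blue distal) and for medium (right, green WENR-plus and purple WENR-minus), with the marker shape giving the replicate number. Sites do not overlap in any of the 11 regions on the left, and media overlap on the right at Prdx6 and Klf12 only.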

How the data were processed

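ChIPmentation libraries for Cdx2 were made from organoids of 6 wells each. By the methods section, reads were trimmed, mapped to mm10 and freed of duplicates. The submitters' processing notes name Trimmomatic 0.39, Bowtie2 2.4.5, SAMtools 1.13, MACS2 2.2.7.1 and deepTools 3.5.1, and the study's own software list gives other versions of Bowtie2 and SAMtools. Each library had its own MACS2 peak call with the matched input as control and a q threshold of 0.01. The 12 deposited lists give fold enrichment, a ratio of pileup to local background, −log10 p and −log10 q values, and a score that the authors' MACS2 run derived from q. The 12 input libraries were not analysed here.

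Peaks were merged with a minimum overlap of 1 bp on 21 chromosomes. The members and gene lists were chosen with earlier results of these data known, and the shared sequences, the zinc-finger word and the replicate comparison were chosen after values were seen. A region's fold in a library is that of its strongest peak there. Log2 folds of the 2079 members were quantile-normalized and fitted with limma 3.58.1 in R 4.3.3 by site, medium and their interaction, with Benjamini-Hochberg adjustment over the members. The fit was tested on simulated data. Sequence was read from GRCm38 and start sites from GENCODE M21. A promoter lay within 3 kb of a start site. Pileup and background were solved from fold and p. Differences in shares were tested by exact sign-flip permutation over 6 lines, and intervals are Wilson 95%, which cover counting error only.

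Regions named in the text are the 10 of highest median percentile, the 5 of largest difference in each direction that passed the test without overlap, all others that passed for medium, the genes of each list within 3 kb (values for at most 4), the 5 largest groups of neighbours, and the 3 without a CDX word and 3 with most copies, of which 1 is not reported here. Coordinates are 1-based.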

Additional observations from a re-analysis of the deposited data

How the results depend on the processing

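The number of constitutive regions changed with the lists used. It was 1123 with every list cut to 5608 peaks, 976 where all summits had to lie within 100 bp, 2455 to 3520 without 1 replicate number (highest without replicate 3) and 2081 to 2420 without 1 library. A CDX word was found in 83.9% of members within 100 bp, 38.5% within 25 bp, 69.2% at the summit of the strongest library, 78.7% with lists of equal length, 48.6% with TTTATGG and TTTATGA only, and 69.6% to 79.6% without 1 replicate number. The promoter share was 6.88% within 1 kb, 13.4% for protein-coding genes only and 18.1% to 21.96% without 1 replicate number. The motif difference of 8.08 points passed with 12 libraries as the unit (exact sign-flip p = 0.003906). By the same exact test the promoter difference passed with 12 libraries as the unit (3.38 points, p = 0.002441), in the top 10% of each list (4.00 points, p = 0.03125) and with lists of equal length (4.06 points, p = 0.03125). For these, the cause was not tested.

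Site called 352 members with median centring, 709 with no normalization (691 higher in proximal and 18 in distal, against 124 and 99), 344 with solved pileup, 338 with a replicate block, 77 on means of 6 lines, 126 with lists of equal length and 139 with lines as a random effect, which was chosen after seeing the data. It called 11 to 183 without 1 replicate number and 146 to 214 without 1 library. Medium called 16 with median centring, 4 with no normalization, 48 with −log10 p, 45 with solved pileup, 77 with a replicate block, 68 with a line block and 18 over the common core. It called 0 to 5 without 1 replicate number and 0 to 17 without 1 library. The interaction called 0 except for 1 without distal WENR-minus replicate 3 (0 to 1). Without the members that hold the interspersed element, chosen after seeing the data, site called 185 and a CDX word was found in 72.0%, and 2043 members remained without those of high background. Of the alternatives for the named regions, 352 stayed on the same side of the threshold and 73 lost it, and none changed direction. For the pairing by replicate number, deviations of the 6 pairs of 1 line correlated at 0.0081 to 0.557, those of the 12 pairs of the same number at different sites at 0.0117 to 0.468 and those of different numbers at a mean of −0.123, and 9 of 12 libraries correlated best with their own number, so the numbers are a hint from the data and were not used as pairs in the main test.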

Other observations

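The libraries numbered 3 stood apart at motif-rich members. Replicate 3 was the lowest of its 3 libraries in all 4 groups at 216 members (10.4%), replicate 1 at 53 and replicate 2 at 36. Of the 216, 97.2% held a CDX word within 50 bp of the summit, with 2.32 copies on average within 100 bp, and 95 of the 195 members with the interspersed element were among them. AP-1 words were in 1.85% of the 216, and their mean GC content was 34.7%. Replicate 3 was the highest in all 4 groups at 141 members, against 28 for replicate 1 and 21 for replicate 2, and 63.1% of the 141 held a CDX word. The comparison was made after the values were seen and was not tested.

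Of the 548 members without a CDX word within 50 bp of the summit, the strongest were the Naip6 region, with a fold of 24.9 to 71.5 over the 12 libraries, the Neu1 region at chr17:34942642-34944060 (14.3 to 41.5) and the Akr1d1 region (23.4 to 47.6). Of these only Akr1d1 passed the cut-off for the interspersed element, and the Naip6 region held 7 of its words. All 3 had a median percentile of at least 99.8.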
